A study of Mus musculus with 51 samples.

Results

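The mitosis genes are a list of 32 mouse genes whose products carry a cell through division: kinases, cyclins, spindle motors, kinetochore and centromere proteins, cytokinesis proteins, chromosome proteins and the transcription factor FOXM1. The list was given by gene name. Through the annotation of the array, 31 of the 32 had a probe set with 1 gene symbol, out of 18193 symbols in all, and the brightest probe set stood for each gene. The RNA of Ccnb1, which encodes cyclin B1, is not analysed here. All 31 passed the filter on dim probe sets in each of the 3 cell types, where 13674, 13469 and 13179 genes were tested.

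Most of these genes are transcribed in waves, low in resting cells and in early interphase and high in late interphase and mitosis. In cycling cells the transcription factor FOXM1 and the MuvB complex with B-MYB drive them through a promoter element called the cell cycle genes homology region (CHR) and through CCAAT boxes bound by NF-Y. The same MuvB complex with the DREAM repressors silences them in quiescent cells and after p53 activation, so in a bulk culture their RNA is known to follow the share of cells that are dividing.

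The study profiled 17 groups of 3 samples on 51 Affymetrix arrays for mouse genes, to ask how losing or adding single HMGN proteins, small nuclear proteins that bind nucleosomes, changes transcription. Primary mouse embryonic fibroblasts (MEFs) of strain C57BL/6 gave 6 groups, the HMGN1, HMGN3 and HMGN5 knock outs (KO), each with its own wild-type (WT) group. SV40-transformed MEFs, a line bought from a cell repository, gave 8 groups that received HMGN1, HMGN1 N2swap, HMGN1 N3swap, HMGN2, HMGN3a, HMGN5, HMGN5SE or the empty vector. MIN6, a beta cell line from a mouse insulinoma, gave 3 groups that received HMGN1, HMGN3a or the empty vector. All construct and vector groups are pools of cells infected by retrovirus with polybrene (5 µg/ml) and kept in puromycin (1 µg/ml for 7 days) until 24 h before RNA was taken, and the design text states that the amount of HMGN protein was about doubled. All cells grew in the same serum-containing medium. The labels do not say which exons the knock outs lack, what the swaps exchange, what SE stands for, or whether the replicates are separate animals or cultures. The p-values therefore measure the spread between these arrays, which may be technical. In the groups labelled HMGN1 KO and HMGN5 KO the arrays differed in sex markers, so they were not repeats of 1 culture. Xist was at 3.14, 8.61 and 7.40 in the HMGN1 KO replicates and at 8.72, 2.60 and 7.69 in the HMGN5 KO replicates.

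Promoters from RefSeq (build GRCm38.p6) were on hand for 24 of the 32 genes, Ccnb1 among them, each from 250 bases before to 50 after the annotated start. The CHR (TTTGAA, either strand) was found in 18 of the 24, or 75% of them, against 18.1% of all 27025 promoters. A CCAAT box (CCAAT, either strand) was found in 19 of the 24 (79.2%), against 37.9% of all promoters. Both elements stood in 16 of the 24 (66.7%), against 7.12% of all. The third motif searched, CGCG, was in 17 of the 24 (70.8%), against 38.4% of all. None of these motifs contains another, and a match is a description of letters, not of binding. The 6 promoters printed here belong to the genes with the smallest adjusted p-values, among those with a promoter on hand, in the comparison with the most calls (HMGN2 against HMGN1 in SV40 MEFs). They are written 5′ to 3′ with CHR and CCAAT matches in capitals.
Cenpe (chr3:135212313-135212612, plus strand): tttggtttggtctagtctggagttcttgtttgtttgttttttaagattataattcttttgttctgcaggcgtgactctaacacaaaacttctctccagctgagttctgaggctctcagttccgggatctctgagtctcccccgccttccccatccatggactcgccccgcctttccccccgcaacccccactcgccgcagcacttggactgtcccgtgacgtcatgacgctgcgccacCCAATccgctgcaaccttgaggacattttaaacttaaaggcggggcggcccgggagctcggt
Prc1 (chr7:80294201-80294500, plus strand): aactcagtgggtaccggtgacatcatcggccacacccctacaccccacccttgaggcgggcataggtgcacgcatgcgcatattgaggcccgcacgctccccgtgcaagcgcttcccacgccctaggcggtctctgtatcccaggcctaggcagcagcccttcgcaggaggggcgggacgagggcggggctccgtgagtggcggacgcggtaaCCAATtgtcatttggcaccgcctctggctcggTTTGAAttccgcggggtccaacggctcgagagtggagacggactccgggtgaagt
Plk1 (chr7:122159185-122159484, plus strand): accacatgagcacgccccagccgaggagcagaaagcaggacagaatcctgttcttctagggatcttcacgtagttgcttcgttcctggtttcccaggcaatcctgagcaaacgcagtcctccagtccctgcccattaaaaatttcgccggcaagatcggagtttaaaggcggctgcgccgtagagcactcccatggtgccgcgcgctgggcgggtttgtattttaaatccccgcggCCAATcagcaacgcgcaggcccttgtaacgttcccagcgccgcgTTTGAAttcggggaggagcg
Nusap1 (chr2:119618048-119618347, plus strand): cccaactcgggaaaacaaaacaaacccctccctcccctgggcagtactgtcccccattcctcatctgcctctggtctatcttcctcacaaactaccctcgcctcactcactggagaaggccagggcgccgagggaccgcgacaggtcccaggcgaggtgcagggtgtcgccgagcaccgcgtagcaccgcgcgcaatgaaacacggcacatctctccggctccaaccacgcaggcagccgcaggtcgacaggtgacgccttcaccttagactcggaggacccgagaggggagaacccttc
Cdk1 (chr10:69352863-69353162, minus strand): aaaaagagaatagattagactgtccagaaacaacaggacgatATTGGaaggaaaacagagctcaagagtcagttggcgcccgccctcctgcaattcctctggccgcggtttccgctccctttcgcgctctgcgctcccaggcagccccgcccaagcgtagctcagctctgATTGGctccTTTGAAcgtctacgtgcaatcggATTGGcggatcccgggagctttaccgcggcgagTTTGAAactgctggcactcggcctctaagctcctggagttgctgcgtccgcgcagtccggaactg
Kif11 (chr19:37376132-37376431, plus strand): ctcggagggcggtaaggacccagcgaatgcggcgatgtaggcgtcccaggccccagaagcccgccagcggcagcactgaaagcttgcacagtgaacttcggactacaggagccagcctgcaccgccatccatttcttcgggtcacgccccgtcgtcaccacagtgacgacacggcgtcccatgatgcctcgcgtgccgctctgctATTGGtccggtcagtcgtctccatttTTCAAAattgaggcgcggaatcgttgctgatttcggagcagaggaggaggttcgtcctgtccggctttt

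Among these 6, Plk1 and Prc1 each hold 1 CCAAT box with 1 CHR downstream of it. In Plk1 the CCAAT box lies at bases -14 to -10 and the CHR at 31 to 36, counted from the annotated start, which is base 1. In Prc1 they lie at -37 to -33 and at -5 to 1. Cdk1 holds 2 CHR and 3 CCAAT matches, and these CCAAT matches read ATTGG on the strand shown. Kif11 holds 1 of each, both on the opposite strand, where the CHR reads TTCAAA. The Cenpe window holds a CCAAT box at -12 to -8 and no CHR, and that of Nusap1 holds neither.

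The deposited values are intensities, read here on the log2 scale, and each change is a difference of log2 means ± its standard error (n = 3 arrays a group). A gene was called at a limma adjusted p below 0.05 over all genes tested. With 3 arrays a group, a lack of overlap is common. With HMGN1 in SV40 MEFs 27.8% of all genes had all arrays above the vector and 21.6% all below. Where no such share is printed, a lack of overlap only describes the named genes. Median intensities per array were 5.46 to 5.93 in primary MEFs, while SV40 MEFs had 18.6 to 19.6 and MIN6 cells 55.4 to 57.5, so no level is compared between cell types. Markers of the labelled cells were present: 9 of 9 fibroblast genes passed the filter in primary MEFs and 8 of 9 in SV40 MEFs, and 8 of 11 beta cell genes passed it in MIN6 cells. As a check of the labels, Hmgn1 fell by 0.67 in HMGN1 KO and Hmgn3 fell by 1.30 in HMGN3 KO. In the arrays labelled HMGN5 KO the Hmgn5 probe set was higher (0.72 ± 0.12, adjusted p = 0.0311), so that group is named by its label throughout. The Hmgn1 probe sets did not register the HMGN1 construct (-0.01 ± 0.07 in SV40 MEFs, adjusted p = 0.915), and its amount rests on the design text. With HMGN3a the Hmgn3 probe set differed from the vector by -0.23 ± 0.08 in SV40 MEFs (adjusted p = 0.322). In MIN6 cells it was higher (0.23 ± 0.05, adjusted p = 0.009). In the HMGN5 pools the Hmgn5 probe set differed from the vector by -0.93 and the Hmgn1 probe set by 0.37.

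**Figure D1:**
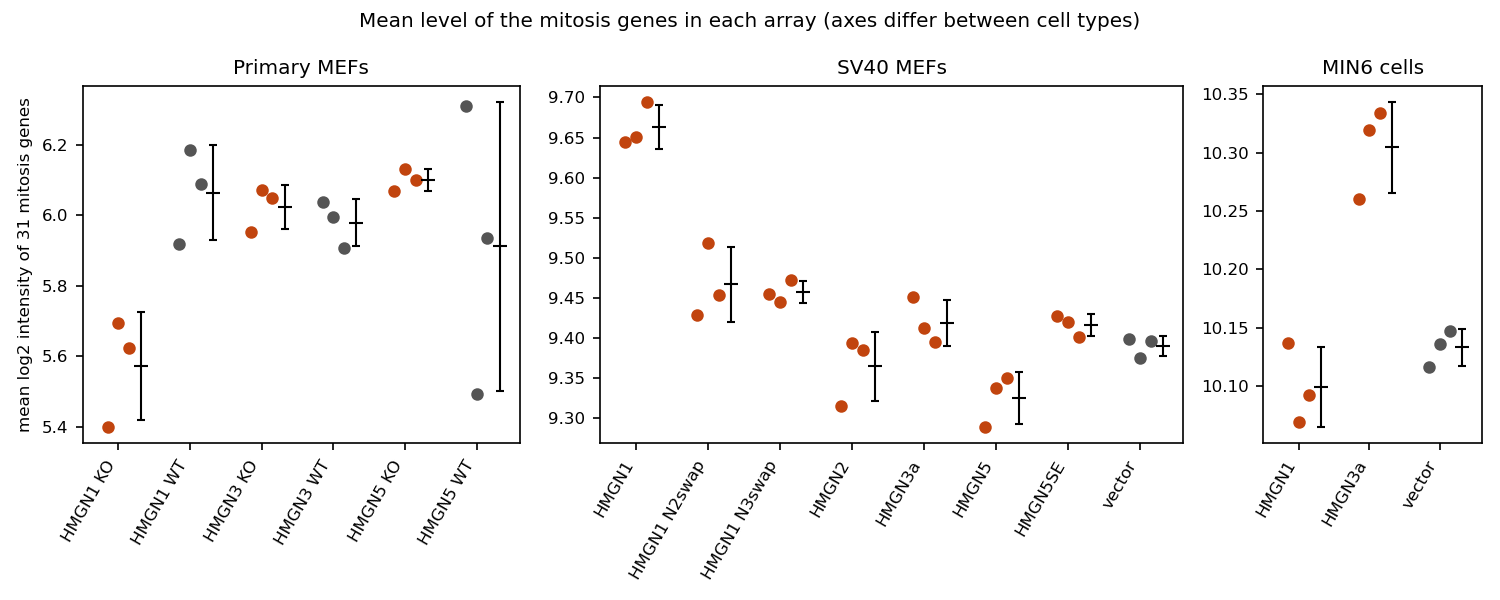
Mean log2 intensity of the 31 mitosis genes in each array, with 1 panel and axis per cell type. Points are arrays (orange for knock outs and constructs, grey for WT and vector) and the bar beside them is the mean with its SD over 3 arrays. The HMGN1 KO arrays lie lowest among the primary MEF groups apart from 1 HMGN5 WT array, the HMGN1 pools lie highest among SV40 MEFs, and the HMGN3a pools lie highest among MIN6 cells.

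In primary MEFs without HMGN1, the mitosis genes read lower throughout, although 1 gene alone passed the test. Of 31 genes, 0 were called higher and 1 lower, where 0.439% of all genes tested were called in either direction. The median change was -0.50, against -0.02 for all genes, and every one of the 31 estimates was below 0, from -0.70 for Kif11 to -0.15 for Cdc25c. At an unadjusted p below 0.05, 28 of the 31 were lower and 0 higher, where 15.5% of all genes reached that level. For 29 of the 31 all KO arrays lay below all WT arrays, as did 13.4% of all genes, and for 0 all KO arrays lay above, as did 7.53% of all genes. The mean of the 31 genes was 5.40, 5.70 and 5.62 in the KO arrays, against 5.92, 6.19 and 6.09 in the WT arrays. Those sets of 3 do not overlap.

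The called gene was Dlgap5, a spindle protein that bundles microtubules near chromosomes. Its levels were 3.67, 3.98 and 3.89 in HMGN1 KO, against 4.40, 4.49 and 4.57 in HMGN1 WT. All 3 KO arrays lay below the lowest WT array, and the change was -0.64 ± 0.09 (adjusted p = 0.00623), or 0.641 of the WT level. Its second probe set differed by -0.24. With the compared groups fitted alone the gene missed the threshold (adjusted p = 0.125).

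The largest estimate was that of Kif11, which missed the threshold. Kif11, the motor that pushes spindle poles apart, read 4.25, 4.49 and 4.66 in KO and 5.00, 5.24 and 5.25 in WT. Its groups did not overlap, and the change was -0.70 ± 0.15 (adjusted p = 0.063). The 9 spindle genes had a median of -0.53, with Kif20a (-0.58 ± 0.16), Kif2c (-0.53 ± 0.15) and Prc1 (-0.49 ± 0.15) near it.

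The 7 mitotic kinases had a median of -0.51, and 0 were called. Aurkb, the kinase of the chromosomal passenger complex, was at 4.10, 4.72 and 4.49 in KO, against 4.93, 5.34 and 5.02 in WT (-0.66 ± 0.17, adjusted p = 0.0897). Plk1, which drives mitotic entry and centrosome maturation, was at 5.05, 5.46 and 5.26 in KO, against 5.71, 5.88 and 5.78 in WT (-0.53 ± 0.19, adjusted p = 0.195). Cdk1, the kinase that starts mitosis, was at 7.05, 7.46 and 7.22 in KO, against 7.50, 7.74 and 7.74 in WT (-0.42 ± 0.13, adjusted p = 0.142). In each of these kinases replicate 1 was the lowest KO array, and the KO and WT arrays did not overlap.

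The 6 kinetochore and checkpoint genes had a median of -0.50, led by Cenpf, a large coiled-coil kinetochore protein (-0.61 ± 0.21), and Birc5, which encodes survivin (-0.59 ± 0.16). Cenpe, a kinetochore motor, was at 4.54, 5.29 and 5.27 in KO and 5.34, 5.67 and 5.49 in WT (-0.47 ± 0.24, adjusted p = 0.363). Replicate 1 stood far below the other KO arrays, and the highest KO array lay just under the lowest WT array. Top2a, the topoisomerase that untangles sister chromatids, was at 6.87, 7.12 and 7.06 in KO, against 7.39, 7.67 and 7.60 in WT (-0.54 ± 0.14, adjusted p = 0.088). Foxm1, the transcription factor of this gene class, was dim, as the called Dlgap5 was, and its groups overlapped. It read 3.71, 4.04 and 3.87 in KO and 4.11, 4.12 and 4.04 in WT (-0.21 ± 0.12, adjusted p = 0.418). The other overlapping gene was Cdc25c, a phosphatase that activates CDK1.

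**Figure D2:**
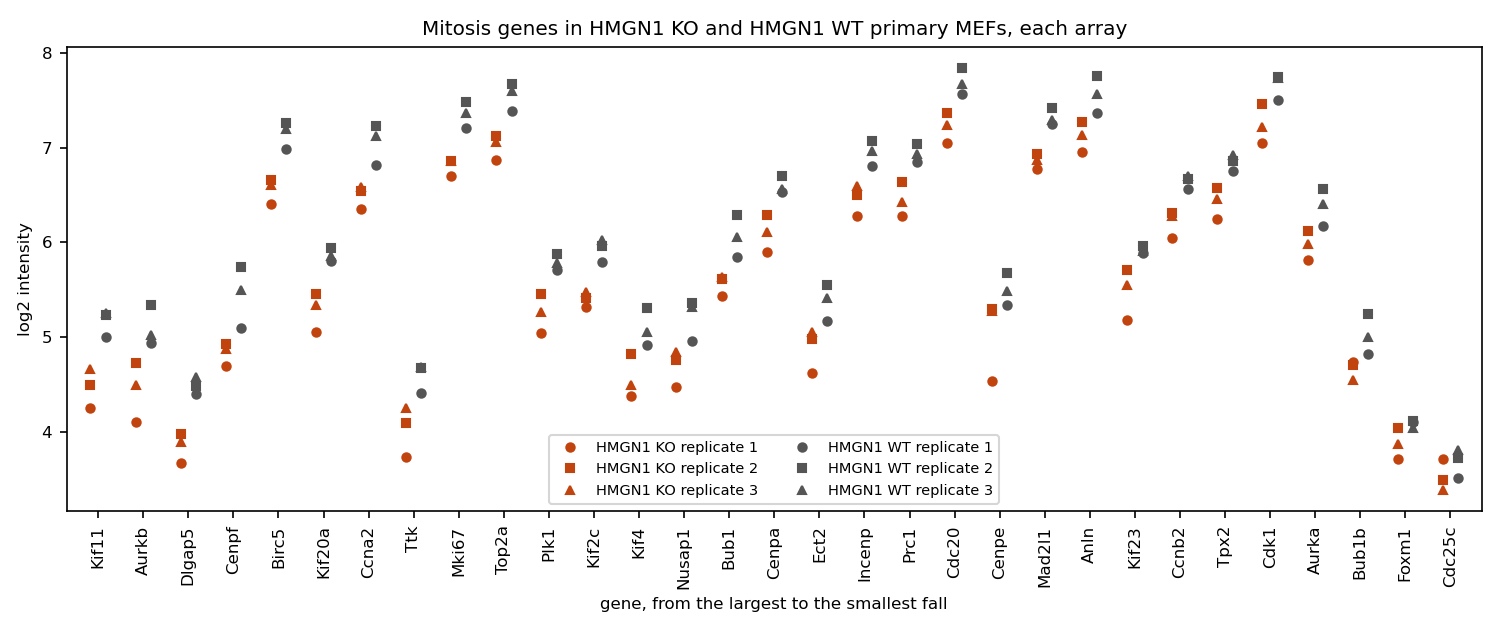
Log2 intensity of the 31 mitosis genes in each HMGN1 KO array (orange, left) and each HMGN1 WT array (grey, right), with genes ordered by the size of the change. In 29 genes the 3 KO arrays lie below the 3 WT arrays, and Foxm1 and Cdc25c overlap.

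Other lists of division genes lay on the same side. Of 35 further kinetochore and centromere genes 1 was called lower and 0 higher (median -0.34), the called gene being Cenpl (-0.63 ± 0.11, adjusted p = 0.0169). Of 24 further spindle and cytokinesis genes 0 were called (median -0.41), and of 11 condensin, separase and securin genes 0 (median -0.42). DNA replication genes had 6 of 31 called lower, 0 higher and a median of -0.37, among them the helicase subunits Mcm6 (-0.42 ± 0.05) and Mcm7 (-0.44 ± 0.08). Among 20 MuvB, B-MYB, E2F and NF-Y factors 1 was lower, Rbl1, which encodes the DREAM pocket protein p107 (-0.61 ± 0.11, adjusted p = 0.0203). Of 14 CDK inhibitors and p53 targets 1 was lower, Cdkn2c (-0.54 ± 0.11, adjusted p = 0.0486), and their median was 0.03. Of 14 further genes of mitotic entry (median -0.24) and 16 of the anaphase-promoting complex (median -0.09) 0 were called.

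The KO and WT cultures differed in other ways too. Xist was at 8.56 to 8.63 in all HMGN1 WT arrays, but ran from 3.14 to 8.61 in HMGN1 KO arrays. Eif2s3y, a Y-linked gene, ran from 1.28 to 5.85 in KO and from 1.31 to 1.41 in WT. With the share of male cells, read from Eif2s3y, as a covariate, the median change of the mitosis genes was -0.48. The summed level of 9 macrophage and leukocyte markers (of 10 listed) was 8.50 to 9.0 in KO and 8.99 to 9.11 in WT on the log2 scale, with 0 of the 9 called. Of 4 epithelial and 2 endothelial markers past the filter 0 were called. The part of these cells in the result was not tested. In bulk RNA, fewer dividing cells and less RNA per dividing cell cannot be told apart.

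In primary MEFs without HMGN3, 0 of the 31 genes were called in either direction, where 0.585% of all genes were, and 0 reached an unadjusted p below 0.05, where 8.47% of all genes did. The median change was 0.05, with 25 genes above 0 and 6 below. The array means of the 31 genes were 5.95, 6.07 and 6.05 in KO and 6.04, 5.99 and 5.91 in WT, and they overlap. For 5 genes all KO arrays lay above all WT arrays (7.09% of all genes did so), and for 0 they lay below (8.8% of all genes). The smallest unadjusted p-values belonged to Foxm1 (4.31, 4.43 and 4.16 in KO, 4.28, 3.94 and 4.19 in WT) and Kif11 (4.82, 5.11 and 4.81 in KO, 5.26, 5.02 and 5.02 in WT). Foxm1 changed by 0.17 ± 0.12 and Kif11 by -0.19 ± 0.15, with adjusted p-values of 0.822 and 0.852.

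In the arrays labelled HMGN5 KO, 0 of 31 genes were called, where 0.0731% of all genes were. At an unadjusted p below 0.05, 1 gene was higher and 0 lower, where 5.59% of all genes reached that level. Although 30 of the 31 estimates were above 0 (median 0.18), for 0 genes did all KO arrays lie above (4.97% of all genes) or below (6.12%) all WT arrays. The array means were 6.07, 6.13 and 6.10 in the labelled KO, and 6.31, 5.49 and 5.93 in WT. WT replicate 2 stood far below every other array of this set, and the median was -0.02 without it and 0.39 without WT replicate 1. Xist ran from 2.60 to 8.72 in the labelled KO and from 2.40 to 2.78 in WT, and Eif2s3y from 1.54 to 6.50 in the labelled KO and from 6.40 to 6.59 in WT. With the male share as a covariate the median was 0.12. Aurka, the kinase of spindle poles, had the smallest p, with 6.41, 6.26 and 6.36 in the labelled KO against 6.42, 5.73 and 6.00 in WT (0.29 ± 0.13, adjusted p = 0.872). Kif23, a motor of the central spindle, followed with 6.05, 5.97 and 6.13 against 6.21, 5.11 and 5.68 in WT (0.38 ± 0.19, adjusted p = 0.928). Both genes are low in WT replicate 2.

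The differences between the knock out effects were tested directly. Between the HMGN1 and HMGN3 effects 1 of 31 genes differed after adjustment (0.505% of all genes) and 25 at an unadjusted p below 0.05 (12.2% of all genes), all with the HMGN1 effect lower. Between the HMGN1 effect and that of the labelled HMGN5 KO the counts were 1 (0.161% of all genes) and 28 (11.6%), again all lower. Dlgap5 was the called gene in both, with differences of -0.75 ± 0.13 (adjusted p = 0.0171) and -0.80 ± 0.13 (adjusted p = 0.0182). With all probe sets averaged neither call of Dlgap5 was kept (-0.53, adjusted p = 0.0517, and -0.56, adjusted p = 0.0817), and the second was also lost with the male share covariate (-0.71, adjusted p = 0.0689). With the compared groups fitted alone the counts became 9 and 0. Without HMGN5 WT replicate 1 the second difference had 24 calls, and it had 0 without HMGN1 WT replicate 2 or 3, HMGN5 KO replicate 3 or HMGN5 WT replicate 3. The first difference had 0 calls without HMGN1 WT replicate 3, HMGN3 KO replicate 3 or HMGN3 WT replicate 3. The share of all genes called in these refits is not given here, so their counts cannot be read as particular to the mitosis genes. Between the HMGN3 effect and that of the labelled HMGN5 KO 0 differed (0.424% of all genes), and 0 at an unadjusted p below 0.05 (7.66%).

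The 3 WT groups, none of which carries a knock out by its label, were also set against each other. They differed in sex markers: Xist was at 2.65 to 2.73 in HMGN3 WT and 2.40 to 2.78 in HMGN5 WT, against 8.56 to 8.63 in HMGN1 WT, and Eif2s3y at 6.28 to 6.50 and 6.40 to 6.59, against 1.31 to 1.41 in HMGN1 WT. HMGN3 WT had 1 gene lower than HMGN1 WT, where 31.5% of all genes were called, and 3 at an unadjusted p below 0.05 (41.5% of all genes). The gene was Cdc25c, with 3.43, 3.15 and 3.19 in HMGN3 WT against 3.51, 3.72 and 3.80 in HMGN1 WT (-0.42 ± 0.11, adjusted p = 0.00746). This call was lost with the male share covariate, although the estimate stayed at -0.42 (adjusted p = 0.136). It was also lost with its probe sets averaged (-0.23, adjusted p = 0.172). HMGN5 WT had 1 gene lower than HMGN1 WT, where 11.7% of all genes were called, and 3 at an unadjusted p below 0.05 (25.7%). That was Dlgap5, with 4.31, 3.91 and 4.17 in HMGN5 WT against 4.40, 4.49 and 4.57 in HMGN1 WT (-0.36 ± 0.09, adjusted p = 0.0203). This call was lost with the male share covariate (-0.25, adjusted p = 0.497) and with the compared groups fitted alone (adjusted p = 0.0788). The sex markers separated HMGN1 WT from both other WT groups, so sex and group cannot be told apart in these contrasts. HMGN5 WT against HMGN3 WT gave 0 calls (17.2% of all genes) and 3 genes at an unadjusted p below 0.05 (29.6%). The count of HMGN5 WT against HMGN1 WT became 8 without HMGN5 WT replicate 1 and 0 without HMGN5 WT replicate 2 or HMGN1 WT replicate 2 or 3. That of HMGN5 WT against HMGN3 WT became 6 without HMGN5 WT replicate 1, 2 without HMGN5 WT replicate 2 and 1 without HMGN3 WT replicate 1. For these refits too the share of all genes called is not given.

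**Figure D3:**
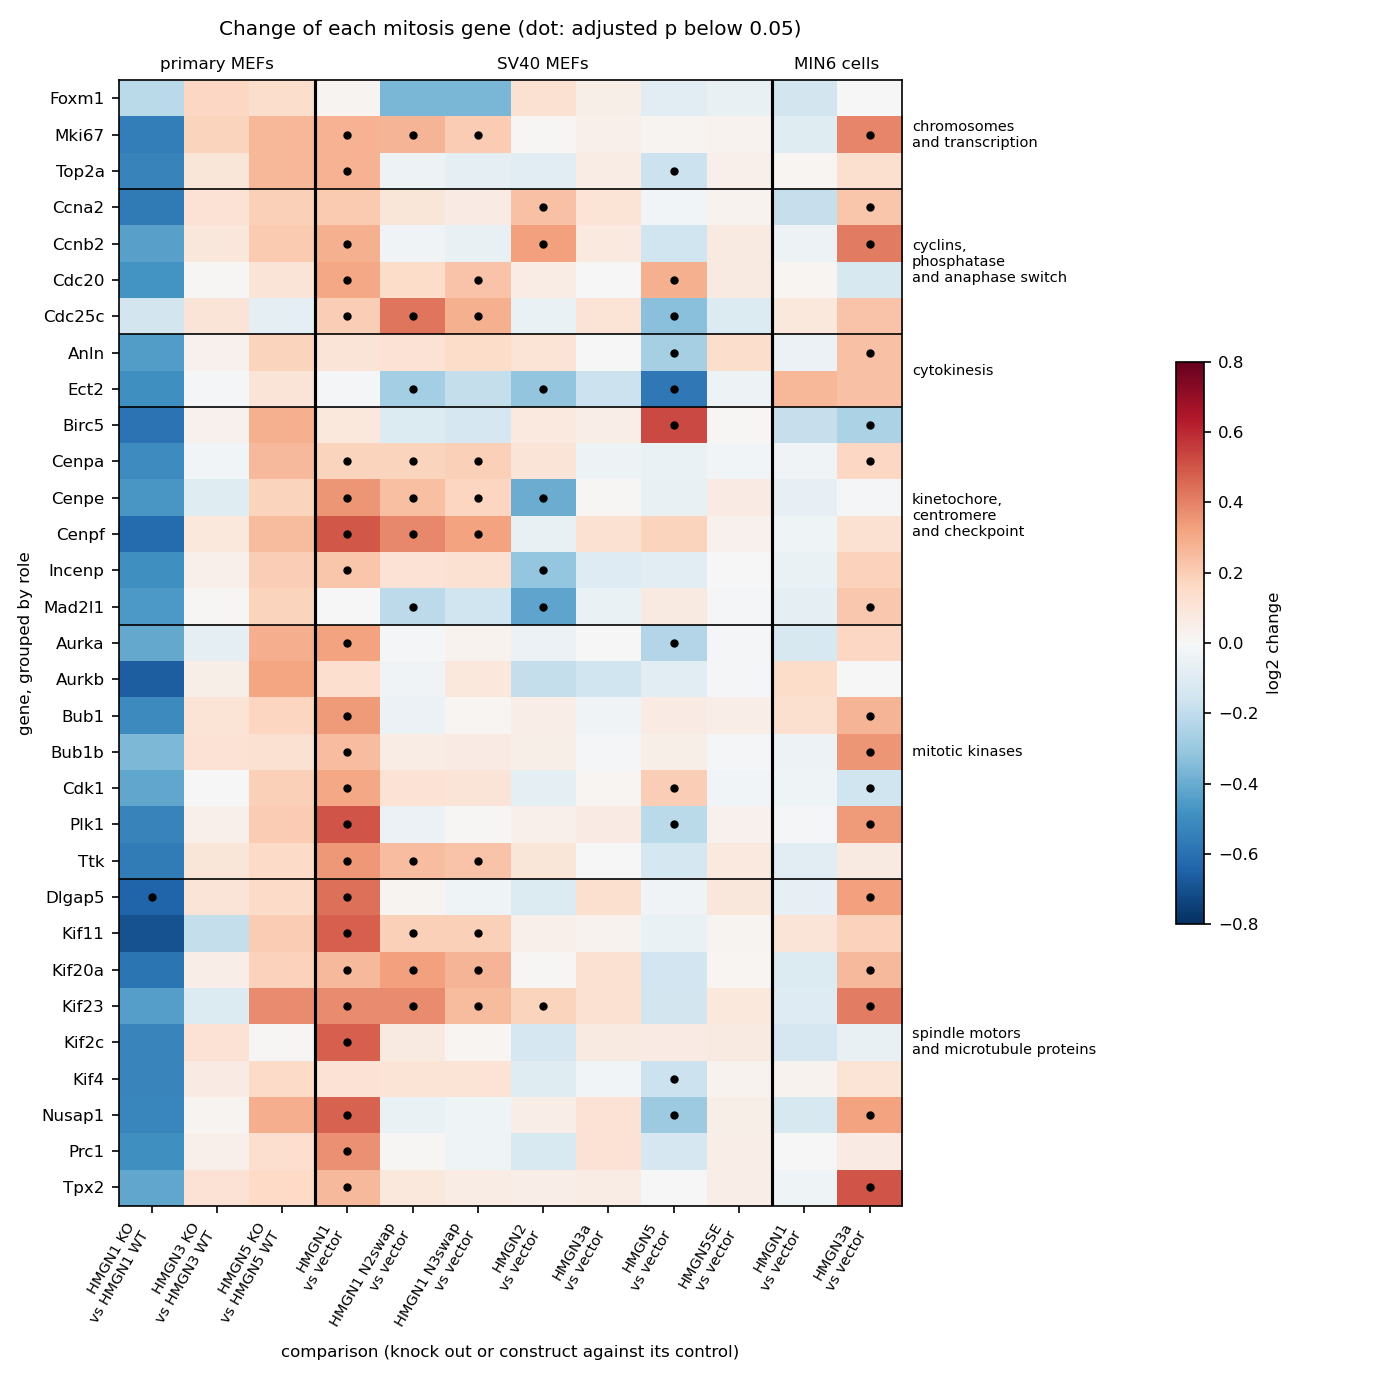
Log2 change of each of the 31 mitosis genes (rows, grouped by role) in the 12 comparisons with a WT or vector control (columns). Red is higher and blue lower than the control, and a dot marks an adjusted p below 0.05. The HMGN1 KO column is blue throughout with 1 dot, the SV40 HMGN1 column has 23 dots in red, and the MIN6 HMGN3a column has 14 in red and 2 in blue.

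In SV40 MEFs the pools with HMGN1 had higher RNA of most mitosis genes. Of the 31 genes 23 were called higher and 0 lower, where 17.4% of all genes were called higher and 12.1% lower. The median change was 0.28, against -0.00 for all genes, and the highest was 0.50. For 26 genes all HMGN1 arrays lay above all vector arrays, as they did for 27.8% of all genes, and 21.6% of all genes had them all below. The array means were 9.64, 9.65 and 9.69 with HMGN1, against 9.40, 9.38 and 9.40 with the vector. No change reached 1.5-fold (0 of 31).

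Of the 7 kinases 6 rose, the exception being Aurkb. Aurkb was at 8.76, 8.70 and 8.91 with HMGN1, against 8.66, 8.61 and 8.70 with the vector, and the groups met at 8.70 (0.13 ± 0.09, adjusted p = 0.254). Plk1 was at 9.52, 9.44 and 9.62 in HMGN1 pools, against 9.04, 8.97 and 9.06 in vector pools (0.50 ± 0.06, adjusted p = 4.28e-06), which is 1.42 times the vector level. Cdk1 was at 11.07, 11.11 and 11.13, against 10.83, 10.81 and 10.74 with the vector (0.31 ± 0.05, adjusted p = 0.00018). The HMGN1 arrays of both genes lay above every vector array. The checkpoint kinases Bub1 (0.34 ± 0.06), Ttk (0.34 ± 0.07) and Bub1b (0.24 ± 0.06) rose as well, although the dimmer probe set of Ttk differed by -0.11 and its call was lost when both were averaged (adjusted p = 0.123).

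Of the 9 spindle genes 8 rose, with a median of 0.38, and Kif4 did not pass the test (0.12 ± 0.07). The call of Tpx2 was lost with its probe sets averaged (0.15, adjusted p = 0.12). That of Kif20a was lost without HMGN1 replicate 2 or 3 or vector replicate 2 or 3. Kif11 was at 8.99, 8.91 and 8.96 with HMGN1, against 8.48, 8.40 and 8.55 with the vector (0.48 ± 0.06, adjusted p = 7.05e-06), and its 2 other probe sets differed by 0.43 and 0.49. Nusap1, which crosslinks microtubules at chromosomes, was at 9.59, 9.49 and 9.66, against 9.12, 9.06 and 9.14 with the vector (0.47 ± 0.06, adjusted p = 2.95e-06). In neither gene did the groups overlap. Kif2c, a microtubule depolymerase, rose by 0.48 ± 0.09, and Dlgap5 by 0.44 ± 0.07.

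Among the 6 kinetochore genes 4 rose: Cenpf, Cenpe, Incenp (0.22) and Cenpa (0.18). The call of Incenp was lost without the filter (adjusted p = 0.0601) and on leaving out any 1 HMGN1 or vector array. That of Cenpa was lost with its probe sets averaged (adjusted p = 0.125) and without HMGN1 replicate 2 or vector replicate 1 or 2. Cenpf was at 8.92, 8.79 and 8.84 with HMGN1, against 8.29, 8.32 and 8.44 with the vector (0.50 ± 0.09, adjusted p = 0.000136). Cenpe was at 8.88, 8.75 and 8.84, against 8.51, 8.44 and 8.45 with the vector (0.35 ± 0.06, adjusted p = 0.00028), and its second probe set differed by 0.55. Both genes had all HMGN1 arrays above all vector arrays. Mad2l1, a spindle checkpoint protein, had -0.00 ± 0.07 and Birc5 0.08 ± 0.07, neither of which passed. Cdc20, the activator of the anaphase-promoting complex (0.31 ± 0.06), Ccnb2, a B-type cyclin (0.28 ± 0.07), and Cdc25c (0.20 ± 0.06, lost on a further quantile normalization with an adjusted p of 0.141, or without HMGN1 replicate 2 or 3 or vector replicate 2 or 3) rose, and Ccna2, the S and G2 phase cyclin, stood just above the threshold (0.21 ± 0.08, adjusted p = 0.0563). The call of Ccnb2 was lost without HMGN1 replicate 3 (0.22, adjusted p = 0.0553). Top2a was at 11.42, 11.35 and 11.48, against 11.17, 11.14 and 11.13 with the vector (0.28 ± 0.07, adjusted p = 0.00336). Foxm1 was at 8.44, 8.35 and 8.42, against 8.43, 8.36 and 8.36 with the vector, and the groups overlapped (0.02 ± 0.15, adjusted p = 0.936). Both cytokinesis genes, Ect2 (-0.01 ± 0.09) and Anln (0.11 ± 0.07), missed the threshold.

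The direction held across probe sets: of 27 other probe sets of the called genes that passed the level of the filter, 25 had the same sign. Further kinetochore genes had 17 of 35 called higher and 0 lower, and further spindle and cytokinesis genes 13 of 24 higher and 1 lower. Ndc80, the microtubule-binding kinetochore subunit, rose by 0.52 ± 0.08, Aspm, a spindle pole protein, by 0.53 ± 0.07, and Pttg1, which encodes securin, by 0.54 ± 0.07. DNA replication genes had 13 of 32 higher and 0 lower. Among the transcription factors 6 of 21 were higher and 2 lower, and the lower ones include Mybl2, the gene of B-MYB (-0.41 ± 0.08). Of 14 CDK inhibitors and p53 targets 5 were higher and 0 lower, for example Cdkn1b (0.53 ± 0.09). Fibroblast markers had 1 of 8 higher and 1 lower, and their summed level was 13.00 to 13.05 with HMGN1 and 12.92 to 12.97 with the vector. The part of these in the result was not tested.

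In pools with HMGN2 few mitosis genes differed from the vector, and those few went in both directions. Of 31 mitosis genes 3 were called higher and 4 lower, where 18.7% of all genes were called higher and 25.6% lower, and the median was 0.01. The mitosis genes were thus called less often than all genes in either direction. The array means were 9.32, 9.39 and 9.39 with HMGN2, against 9.40, 9.38 and 9.40 with the vector. The cyclins Ccnb2 (10.21, 10.35 and 10.43 with HMGN2, 10.05, 9.94 and 10.02 with the vector) and Ccna2 (10.61, 10.74 and 10.81 with HMGN2, 10.46, 10.50 and 10.50 with the vector) were higher. Their changes were 0.33 ± 0.07 (adjusted p = 0.0013) and 0.23 ± 0.08 (adjusted p = 0.0252), the second probe set of Ccna2 differing by -0.02. The call of Ccna2 was lost with the probe sets averaged (0.11, adjusted p = 0.121), with the Actb 3′ minus 5′ difference, a sign of RNA quality, as a covariate (0.09, adjusted p = 0.159), and without HMGN2 replicate 2 or 3 or vector replicate 1. That difference was 0.01 to 0.20 with HMGN2 and 0.23 to 0.29 with the vector. These ranges do not overlap, so the covariate and the construct cannot be told apart. Mad2l1 was lower, at 9.90, 9.87 and 9.96 with HMGN2 against 10.33, 10.36 and 10.31 with the vector (-0.42 ± 0.07, adjusted p = 2.68e-05). Cenpe was lower too, at 8.11, 8.07 and 8.04 against 8.51, 8.44 and 8.45 with the vector (-0.40 ± 0.06, adjusted p = 4.08e-05). None of these 4 genes overlapped between the groups. The other calls were Kif23 (0.18 ± 0.06, with an adjusted p of 0.0604 under the Actb covariate), Ect2 (-0.31 ± 0.09), the guanine nucleotide exchange factor of the cleavage furrow, and Incenp (-0.31 ± 0.08), the scaffold of the passenger complex, which read 0.06 when all of its probe sets were averaged.

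These pools stood apart from the vector in much else. Of 8 fibroblast markers 6 were higher with HMGN2, and their summed level was 13.89 to 14.02, against 12.92 to 12.97 with the vector. Xist ran from 6.16 to 6.55, against 4.70 to 4.91 with the vector. Of 14 CDK inhibitors and p53 targets 7 were higher and 4 lower, among them Cdkn2c (0.97 ± 0.07) and Cdkn1b (0.90 ± 0.09). Their part in the mitosis gene values was not tested.

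HMGN2 pools set directly against HMGN1 pools gave the most calls, 25 of 31 lower and 0 higher, where 26.2% of all genes were called lower and 14.9% higher. The median was -0.29. Cenpe differed most, with 8.11, 8.07 and 8.04 in HMGN2 pools against 8.88, 8.75 and 8.84 in HMGN1 pools (-0.75 ± 0.06, adjusted p = 6.23e-09), or 0.595 of the HMGN1 level. Kif2c lay between 8.89 and 9.02 in the 3 HMGN2 arrays, against 9.47, 9.63 and 9.62 with HMGN1 (-0.61 ± 0.09, adjusted p = 1.32e-05). Prc1, the microtubule bundler of the central spindle, was at 9.24, 9.37 and 9.29, against 9.76, 9.76 and 9.82 with HMGN1 (-0.48 ± 0.06, adjusted p = 5.74e-07). In these 3 genes every HMGN2 array lay below every HMGN1 array, and the share of all genes that did so is not given.

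Plk1 differed by -0.46 ± 0.06 (9.08, 9.06 and 9.06 with HMGN2, 9.52, 9.44 and 9.62 with HMGN1) and Cdk1 by -0.38 ± 0.05 (10.61, 10.78 and 10.77 with HMGN2, 11.07, 11.11 and 11.13 with HMGN1). Aurkb was at 8.46, 8.47 and 8.46 with HMGN2, against 8.76, 8.70 and 8.91 with HMGN1 (-0.32 ± 0.09, adjusted p = 0.00425). Top2a was at 10.91, 11.16 and 11.10, against 11.42, 11.35 and 11.48 with HMGN1 (-0.36 ± 0.07, adjusted p = 0.000132). None of these 4 overlapped. The 6 genes not called were Foxm1, Birc5, Anln, Ccna2, Ccnb2 and Cenpa. Foxm1 was at 8.36, 8.52 and 8.64 with HMGN2, against 8.44, 8.35 and 8.42 with HMGN1, and the groups overlapped. The called change of Kif23 (-0.20 ± 0.06) turned to 0.05 when its probe sets were averaged, and 21 of 27 other probe sets of called genes had the same sign. On the same average the call of Kif11 was lost (-0.10, adjusted p = 0.536, from -0.44), as 1 of its other probe sets differed by 0.32. Those of Incenp (-0.11, adjusted p = 0.08) and Ttk (-0.08, adjusted p = 0.281) were lost too. In the other lists 22 of 35 kinetochore genes, 16 of 24 spindle and cytokinesis genes, 16 of 32 DNA replication genes and 8 of 11 condensin, separase and securin genes were lower, with 2, 0, 0 and 1 higher.

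**Figure D4:**
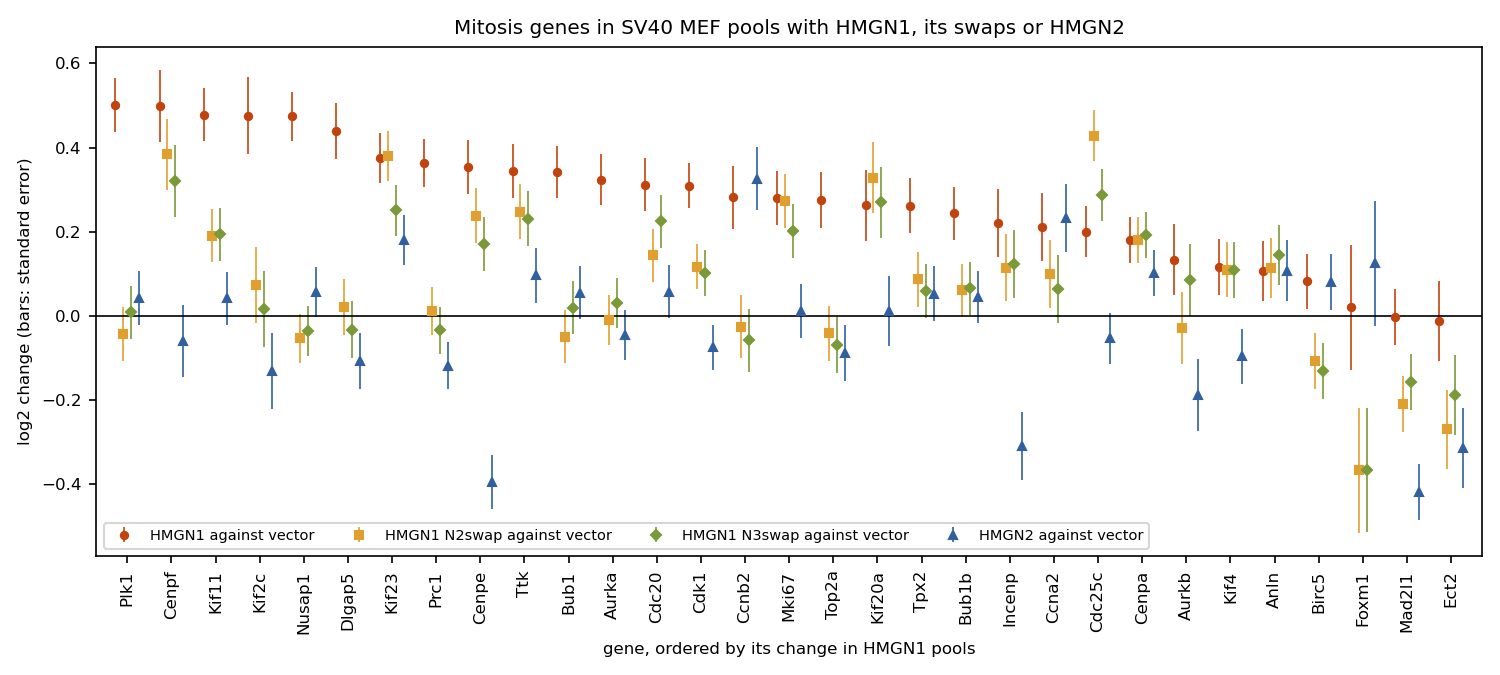
Log2 change against the vector of each mitosis gene in SV40 MEF pools with HMGN1 (circles), HMGN1 N2swap (squares), HMGN1 N3swap (diamonds) or HMGN2 (triangles), with standard errors, ordered by the HMGN1 change. The vector arrays are shared by all 4. Plk1, Kif2c, Nusap1, Dlgap5 and Prc1 are raised with HMGN1 and near 0 with both swaps, while Kif23, Mki67, Kif20a and Cdc25c are raised with HMGN1 and both swaps. Values are those of the brightest probe set, and the second of Cdc25c barely differed with either swap.

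The swap constructs are variants of HMGN1, set here against the vector, native HMGN1 and, for N2swap, HMGN2. With N2swap 9 of 31 genes were called higher and 2 lower than the vector, where 17.7% of all genes were called higher and 19.3% lower, and the median was 0.09. With N3swap 10 were higher and 0 lower, where 17.4% and 20.0% of all genes were called, and the median was 0.06. The array means were 9.43, 9.52 and 9.45 with N2swap and 9.45, 9.44 and 9.47 with N3swap, against 9.40, 9.38 and 9.40 with the vector. With the compared groups fitted alone the calls numbered 5 with N2swap and 6 with N3swap.

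Cdc25c rose most with N2swap, at 7.61, 7.72 and 7.61 against 7.28, 7.18 and 7.18 with the vector (0.43 ± 0.06, adjusted p = 1.2e-05), its second probe set differing by 0.04. With N3swap it was at 7.50, 7.54 and 7.47 (0.29 ± 0.06, adjusted p = 0.000891), and its second probe set differed by 0.0003. Kif23 was at 8.96, 9.05 and 9.03 with N2swap, against 8.66, 8.64 and 8.61 with the vector (0.38 ± 0.06, adjusted p = 3.4e-05), and rose by 0.25 ± 0.06 with N3swap. The swap arrays of both genes lay above all vector arrays. Mki67, the proliferation marker that coats mitotic chromosomes, rose by 0.27 ± 0.06 and 0.20 ± 0.06, and Kif20a, a motor of cytokinesis, by 0.33 ± 0.08 and 0.27 ± 0.08. Both calls of Mki67 were lost with the Actb covariate (0.17, adjusted p = 0.154, and 0.11, adjusted p = 0.352).

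Some of these calls depend on the probe set or on the Actb covariate. Cenpf was at 8.95, 8.77 and 8.49 with N2swap and 8.65, 8.77 and 8.61 with N3swap, against 8.29, 8.32 and 8.44 with the vector (0.38 ± 0.09 and 0.32 ± 0.09), but averaged over its probe sets it read -0.22 and -0.30. Cenpe (0.24 ± 0.06 and 0.17 ± 0.06) read -0.32 and -0.39 on the same average, as its dimmer probe set differed by -0.87 and -0.95. Cenpa with N2swap (0.18 ± 0.05) read -0.02. With the Actb covariate neither Cenpf (0.12, adjusted p = 0.374, and 0.08, adjusted p = 0.545) nor Cenpe (0.17, adjusted p = 0.19, and 0.10, adjusted p = 0.402) passed the test. Of the other probe sets of called genes 5 of 9 with N2swap and 6 of 11 with N3swap had the same sign. The difference between 3′ and 5′ Actb control probe sets was 0.39 to 0.79 with N2swap and 0.47 to 0.77 with N3swap, against 0.23 to 0.29 with the vector. With it as a covariate the N3swap calls numbered 6. The swap and vector ranges do not overlap, so this covariate and the construct cannot be told apart. Fibroblast markers summed to 13.11 to 13.41 with N2swap and 13.19 to 13.29 with N3swap, against 12.92 to 12.97 with the vector. Xist was at 6.88 to 7.78 with N2swap and 6.89 to 7.19 with N3swap, against 4.70 to 4.91 with the vector. The part of these in the result was not tested. Lower with N2swap were Ect2 (9.15, 9.35 and 9.15 against 9.37, 9.40 and 9.69 with the vector, -0.27 ± 0.09) and Mad2l1 (10.11, 10.22 and 10.04 against 10.33, 10.36 and 10.31, -0.21 ± 0.07), neither of them called with the compared groups fitted alone (adjusted p = 0.0936 and 0.0833).

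Against native HMGN1, the N2swap pools had 18 of 31 genes lower and 1 higher (26.1% and 20.0% of all genes), and the N3swap pools 16 lower and 0 higher (28.2% and 22.7% of all genes). The medians were -0.18 and -0.18, and the N2swap calls numbered 11 when the compared groups were fitted alone. Plk1 was at 8.92, 8.90 and 9.11 with N2swap and 9.09, 8.92 and 9.08 with N3swap, against 9.52, 9.44 and 9.62 with HMGN1. The differences were -0.55 ± 0.06 (adjusted p = 5.11e-07) and -0.49 ± 0.06 (adjusted p = 1.82e-06). Nusap1 was at 9.03, 9.02 and 9.11 with N2swap and 9.03, 9.03 and 9.16 with N3swap, against 9.59, 9.49 and 9.66 with HMGN1 (-0.53 ± 0.06 and -0.51 ± 0.06). In both genes every swap array lay below every HMGN1 array, and neither swap differed from the vector in Plk1 beyond the test (-0.04 and 0.01).

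Cdk1 differed less, by -0.19 ± 0.05 with N2swap and -0.21 ± 0.05 with N3swap. Both calls of Cdk1 were lost with the Actb covariate (-0.12, adjusted p = 0.189, and -0.14, adjusted p = 0.0937), and that with N2swap also with the compared groups fitted alone (adjusted p = 0.0765). Top2a differed by -0.32 ± 0.07 and -0.35 ± 0.07. The gene higher with N2swap was Cdc25c (0.23 ± 0.06, adjusted p = 0.00449), which read -0.05 when its probe sets were averaged and 0.17 (adjusted p = 0.114) with the Actb covariate. Foxm1 was at 7.76, 7.79 and 8.50 with N2swap and 8.39, 7.72 and 7.94 with N3swap, against 8.44, 8.35 and 8.42 with HMGN1. The N2swap arrays overlap the HMGN1 arrays through replicate 3 alone, and the call (-0.39 ± 0.15, adjusted p = 0.0369) turned to 0.21 with the Actb difference as a covariate. For N3swap (-0.39 ± 0.15, adjusted p = 0.0343) that covariate gave 0.16. The Actb difference was 0.20 to 0.34 with HMGN1, below every swap array, so here too covariate and construct cannot be told apart. The N2swap call was lost without N2swap replicate 1 or 2 or any 1 HMGN1 array, and the N3swap call without N3swap replicate 2 or 3 or any 1 HMGN1 array. Both were lost with probe sets averaged (adjusted p = 0.115 and 0.062), on a further quantile normalization (0.0588 and 0.075) and with the compared groups fitted alone (0.106 and 0.0512).

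N2swap pools against HMGN2 pools had 10 genes higher and 3 lower (27.7% and 22.5% of all genes), with a median of 0.13. The share called higher was near that of all genes, and the share called lower was below it. The calls numbered 6 with only the compared groups and 7 with the Actb covariate, and 4 of 10 other probe sets of the called genes had the same sign. Cenpe was at 8.68, 8.79 and 8.66 with N2swap, against 8.11, 8.07 and 8.04 with HMGN2 (0.63 ± 0.06, adjusted p = 6.2e-08), and Cdc25c at 7.61, 7.72 and 7.61 against 7.14, 7.24 and 7.11 (0.48 ± 0.06, adjusted p = 1.43e-06). Both had all N2swap arrays above all HMGN2 arrays on the probe set used. The other probe set of Cenpe differed by 0.08 and that of Cdc25c by -0.17, although both calls were kept with probe sets averaged. Foxm1 (-0.49 ± 0.15) and Birc5 (-0.19 ± 0.07) were lower but overlapped, and both turned to values above 0 with the Actb covariate (0.43 and 0.05). The Actb difference was 0.39 to 0.79 with N2swap and 0.01 to 0.20 with HMGN2, so covariate and construct cannot be told apart. Ccnb2 was lower without overlap, at 9.98, 10.05 and 9.91 against 10.21, 10.35 and 10.43 with HMGN2 (-0.35 ± 0.07, adjusted p = 0.00052).

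HMGN5 pools had 3 of 31 genes higher and 8 lower than the vector, where 20.7% and 20.8% of all genes were called, with a median of -0.08. The share called lower was near that of all genes, and the share called higher was below it. The array means were 9.29, 9.34 and 9.35 with HMGN5. Birc5 was at 11.24, 11.18 and 11.15 with HMGN5, against 10.69, 10.67 and 10.62 with the vector (0.53 ± 0.07, adjusted p = 7.83e-07), or 1.44 times the vector level. Cdc20 was at 10.95, 10.97 and 11.01, against 10.71, 10.64 and 10.73 with the vector (0.29 ± 0.06, adjusted p = 0.000821). Ect2 was at 8.74, 8.87 and 9.14, against 9.37, 9.40 and 9.69 with the vector (-0.57 ± 0.09, adjusted p = 3.5e-05). Cdc25c was at 6.78, 6.97 and 6.90, against 7.28, 7.18 and 7.18 with the vector (-0.33 ± 0.06, adjusted p = 0.000126). None of these genes overlapped between the groups.

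The list holds only 2 cytokinesis genes, and both were called lower with HMGN5. Anln, an actin-binding protein of the contractile ring, changed by -0.27 ± 0.07. Nusap1 (-0.29 ± 0.06), Aurka (-0.23 ± 0.06) and Plk1 (-0.21 ± 0.06) were lower, while Cdk1 was higher (0.20 ± 0.05). Top2a (-0.17 ± 0.07) was lower on the probe set used and 0.04 on another, and its call was lost with probe sets averaged (-0.07, adjusted p = 0.468) and without HMGN5 replicate 1 or 3 or any 1 vector array. Cenpa, the centromeric histone, was not called (-0.05), but 1 of its dimmer probe sets differed by 1.96. Fibroblast markers were 5 of 8 higher and 1 lower in these pools, with summed levels of 14.05 to 14.10, and their part was not tested.

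The HMGN5SE pools had 0 of 31 genes called, where 0.0148% of all genes were, and 0 at an unadjusted p below 0.05, where 5.23% were. Their smallest p-values were those of Anln (10.65, 10.58 and 10.57 with HMGN5SE, 10.48, 10.48 and 10.42 with the vector, 0.14 ± 0.07) and Cdc25c (7.11, 7.10 and 7.11 with HMGN5SE, 7.28, 7.18 and 7.18 with the vector, -0.11 ± 0.06). HMGN5 against HMGN5SE gave 3 genes higher and 12 lower (19.8% and 22.2% of all genes). Birc5 differed by 0.52 ± 0.07 (adjusted p = 1.07e-06), with 11.24, 11.18 and 11.15 in HMGN5 pools against 10.61, 10.70 and 10.70 in HMGN5SE pools. Ect2 differed by -0.54 ± 0.09 and Anln by -0.41 ± 0.07, both without overlap between the groups.

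HMGN3a pools of SV40 MEFs had 0 genes called, where 0.0297% of all genes were, and 1 higher and 0 lower at an unadjusted p below 0.05, where 10.9% of all genes reached that level. Kif23 was at 8.85, 8.72 and 8.71 with HMGN3a, against 8.66, 8.64 and 8.61 with the vector (0.12 ± 0.06, adjusted p = 0.46). Prc1 was at 9.52, 9.53 and 9.56, against 9.43, 9.43 and 9.40 with the vector (0.12 ± 0.06, adjusted p = 0.459). The arrays of both genes did not overlap, but neither passed the test.

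In MIN6 cells HMGN3a pools had 14 of 31 genes higher and 2 lower than the vector, where 14.5% of all genes were called higher and 19.5% lower. The median was 0.18, against 0.01 for all genes. Tpx2, which activates Aurora A and nucleates spindle microtubules, was at 10.49, 10.51 and 10.51 with HMGN3a, against 10.06, 9.94 and 10.01 with the vector (0.50 ± 0.05, adjusted p = 6.83e-05), or 1.42 times the vector level. Ccnb2 was at 11.47, 11.53 and 11.48, against 11.06, 11.06 and 11.10 with the vector (0.42 ± 0.05, adjusted p = 0.000184). Every HMGN3a array of both genes lay above every vector array.

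Kif23 (0.41 ± 0.05), Mki67 (0.39 ± 0.06), Bub1b (0.35 ± 0.05) and Plk1 (0.34 ± 0.05) rose as well. Plk1 was at 10.13, 10.13 and 10.19, against 9.75, 9.84 and 9.84 with the vector. Birc5 went the other way, at 10.54, 10.63 and 10.59 with HMGN3a against 10.87, 10.85 and 10.78 with the vector (-0.25 ± 0.06, adjusted p = 0.00634). Cdk1 was at 11.28, 11.28 and 11.34, against 11.45, 11.46 and 11.48 with the vector (-0.16 ± 0.05, adjusted p = 0.0253), a call lost with the compared groups fitted alone (adjusted p = 0.0652) and without HMGN3a replicate 1 or 2 or vector replicate 2 or 3. All HMGN3a arrays of these 2 genes lay below all vector arrays.

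By role, 5 of 9 spindle genes, 3 of 7 kinases, 2 of 6 kinetochore genes, 2 of 4 cyclin and phosphatase genes, 1 of 2 cytokinesis genes and 1 of 3 chromosome genes were higher. Of other probe sets of the called genes 10 of 11 had the same sign. Some of them barely differed: 0.003 for Nusap1, 0.04 for Bub1, 0.08 for Anln and -0.01 for Dlgap5. These calls were lost with probe sets averaged (adjusted p = 0.0511, 0.361, 0.0581 and 0.0916). That of Bub1 was also lost without HMGN3a replicate 2 or 3 or vector replicate 1 or 2. The kinetochore list had 16 of 35 higher and 2 lower, led by Cenpt (0.76 ± 0.05) and Cenpn (0.51 ± 0.07). DNA replication genes had 10 of 32 higher and 3 lower. The p53 targets Mdm2 (-0.67 ± 0.06), Gadd45a (-0.53 ± 0.07) and Ccng1 (-0.46 ± 0.09) fell, within a list of 13 that had 4 lower and 3 higher. The pools also differed in cell type markers. Epithelial markers had a summed level of 12.55 to 12.66 with HMGN3a and 12.05 to 12.11 with the vector, and those of other islet endocrine cells 11.21 to 11.40 and 12.27 to 12.34. Beta cell markers were at 15.92 to 15.95 and 15.85 to 15.91. The part of these markers was not tested.

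HMGN1 in MIN6 cells gave 0 calls of 31, where 1.15% of all genes were called, and 4 genes lower and 0 higher at an unadjusted p below 0.05, where 17.0% of all genes reached that level. The median was -0.04. Ccna2 was at 11.12, 11.11 and 11.10 with HMGN1, against 11.38, 11.28 and 11.23 with the vector (-0.19 ± 0.06, adjusted p = 0.145). Birc5 was at 10.72, 10.65 and 10.59, against 10.87, 10.85 and 10.78 with the vector (-0.18 ± 0.06, adjusted p = 0.152). Neither overlapped, and neither passed the test. HMGN1 pools against HMGN3a pools had 16 genes lower and 0 higher (16.3% and 17.7% of all genes), with a median of -0.16. Tpx2 was at 10.02, 9.91 and 9.95 with HMGN1, against 10.49, 10.51 and 10.51 with HMGN3a (-0.54 ± 0.05, adjusted p = 4.52e-05), and Kif23 at 9.22, 9.09 and 9.13 against 9.66, 9.61 and 9.69 (-0.51 ± 0.05, adjusted p = 6.67e-05). Both lay lower in every HMGN1 array.

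**Figure D5:**
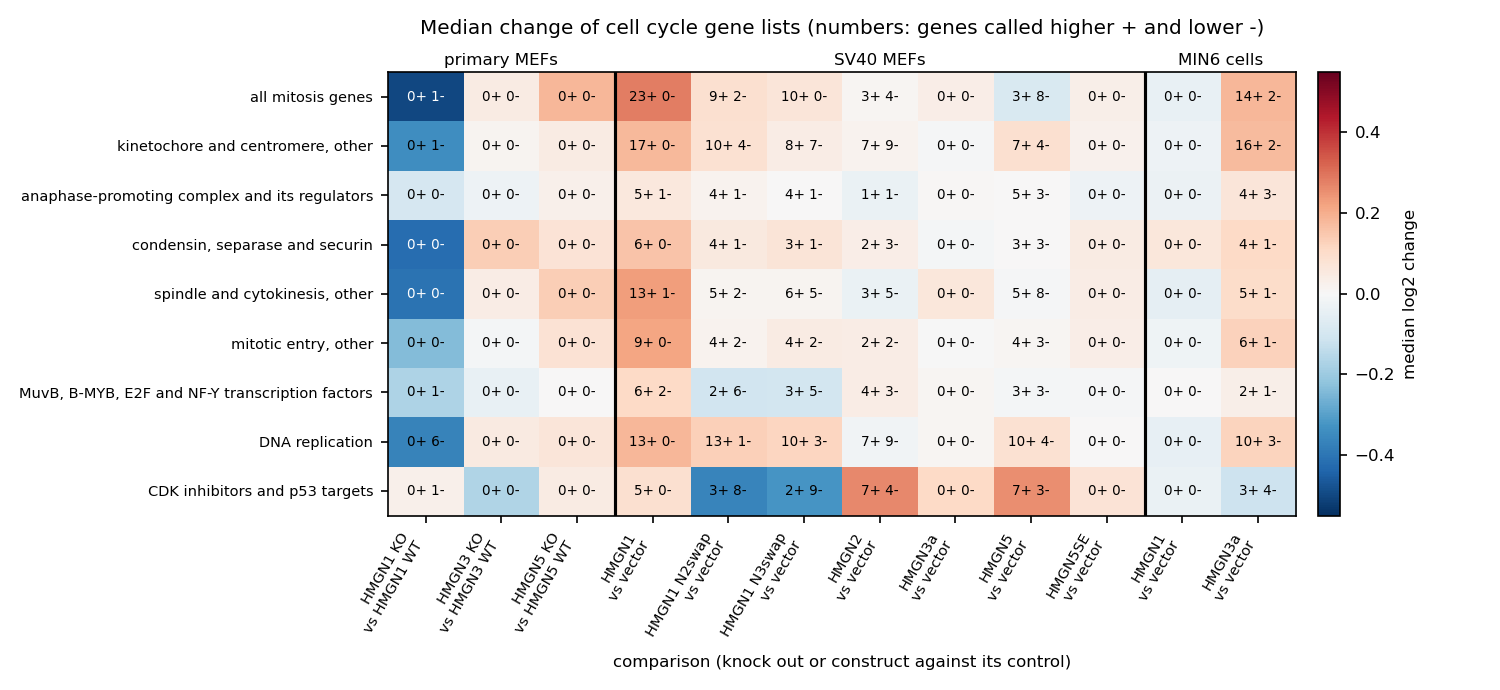
Median log2 change of the mitosis genes and 8 further lists of cell cycle genes (rows) in the 12 comparisons with a control (columns). Each cell prints how many genes were called higher (+) and lower (-). The mitosis row is the darkest blue in the HMGN1 KO column, and the row of CDK inhibitors and p53 targets is blue for both swaps (8 and 9 genes lower) and red for HMGN2 and HMGN5 (7 and 7 higher).

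Set side by side with each control of its own, the mitosis genes had a median of -0.50 in primary MEFs without HMGN1, 0.28 in SV40 MEFs with added HMGN1 and -0.04 in MIN6 cells with added HMGN1. HMGN3 loss in primary MEFs gave 0.05, HMGN3a gave 0.04 in SV40 MEFs and 0.18 in MIN6 cells. The Hmgn3 probe set was not higher with HMGN3a in SV40 MEFs (-0.23) but was in MIN6 cells (0.23). The 7 SV40 comparisons share their vector arrays and the MIN6 comparisons share theirs.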

How the data were processed

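RNA of 51 samples was hybridised to Affymetrix arrays for the mouse genome, 1 sample an array. Per the submitters' processing notes, RMA gave the deposited intensities; it adjusts background, normalizes between arrays and sums probes. Its version and how the arrays were grouped for it are not given in the sources used here. The deposited intensities are linear and were turned into log2 values. Of 45101 probe sets, 64 were array controls, 34945 had 1 gene symbol, 932 several and 9160 none; probe sets with 1 symbol were kept, with symbols updated through gene IDs to RefSeq (GRCm38.p6), and the brightest stood for each gene. Within each cell type, a probe set was dropped if no group mean reached the 40th percentile of group means (log2 1.99 for primary MEFs, 3.63 for SV40 MEFs, 5.13 for MIN6).

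All groups of a cell type entered 1 limma fit (limma 3.58.1, R 4.3.3; lmFit, eBayes) without covariates, and p-values were adjusted by Benjamini-Hochberg over all genes tested, with a threshold of 0.05. The 24 comparisons are 12 with a control, 6 between constructs, 3 between WT groups and 3 differences between knock out effects. The fit was tested on simulated data first. Arrays carry no depth; their number, 3 a group, limits the precision. The mitosis genes and all lists were chosen with earlier results of these data known. Values of every array are given for the called genes with the largest rise and fall in a comparison, for Plk1, Aurkb, Cdk1, Cenpe, Top2a and Foxm1 where most genes were called, and for the 2 smallest p-values where none was called; Prc1, Nusap1, Kif11 and others shown with a figure or promoter were added after their values were seen. Up to 4 genes of each other list are named by adjusted p; Mybl2, Cdkn1b and Mcm7, among others named outside that rule, were chosen after their values were seen. The share of male cells came from Eif2s3y alone. Alternatives were no filter, the mean of all probe sets, a second quantile normalization, the replicate block, the Actb or male share covariate, the compared groups alone, and leaving out each array. Figures and counts used Python 3.11.15, pandas 2.3.3, numpy 2.4.6 and matplotlib 3.10.9.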

Additional observations from a re-analysis of the deposited data

Results flagged for a closer look

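The fall of Dlgap5 in HMGN1 KO differed, by the test of the difference in the limma fit, from its change in HMGN3 KO (-0.748 on the log2 scale) and from that in the arrays labelled HMGN5 KO (-0.797). Both were called in the fit of all 6 groups and missed the threshold when all probe sets of the gene were averaged, and the second also with the male share covariate (read from Eif2s3y).

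For 7 genes every SV40 MEF array with HMGN1 lay above every SV40 vector array, while every MIN6 array with HMGN1 lay below every MIN6 vector array, a pattern held by 5.8% of the 12194 genes tested in both lines. The changes, SV40 MEFs before MIN6 cells, were 0.476 and -0.135 for Kif2c (a difference of 0.611), 0.474 and -0.131 for Nusap1 (0.605), 0.376 and -0.102 for Kif23 (0.478), and 0.324 and -0.125 for Aurka (0.449). They were 0.211 and -0.187 for Ccna2 (0.398), 0.280 and -0.094 for Mki67 (0.374), and 0.082 and -0.185 for Birc5 (0.267). With HMGN3a the opposite order held for Incenp (-0.103 and 0.183, a difference of -0.286) and Mad2l1 (-0.056 and 0.217, a difference of -0.273), where 1.28% of the genes tested in both lines did the same. With HMGN1 none of these genes was called in MIN6 cells, and Ccna2 and Birc5 were not called in SV40 MEFs either. With HMGN3a neither gene was called in SV40 MEFs, and Incenp was not called in MIN6 cells either. The differences between the cell lines were not tested, as the lines were normalized and fitted apart.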

How the results depend on the processing

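Of 187 calls of a mitosis gene in a comparison, 103 were kept under every alternative, 84 were lost under at least 1, and 15 turned in sign under at least 1. The cause was not tested. Counts under the alternatives, here and above, are given without the share of all genes called in the same fit. They cannot be read as particular to the mitosis genes.

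With the compared groups fitted alone, calls numbered 0 in HMGN1 KO, 5 in N2swap and 6 in N3swap against the vector, 11 in N2swap against HMGN1, 6 in N2swap against HMGN2, 4 in HMGN3 WT and 0 in HMGN5 WT against HMGN1 WT, and 9 and 0 in the differences of the HMGN1 effect from the HMGN3 and labelled HMGN5 effects. With the Actb covariate they numbered 6 in N3swap against the vector and 7 in N2swap against HMGN2. With all probe sets averaged they numbered 0 in HMGN3 WT against HMGN1 WT and 0 in both HMGN1 effect differences. With the male share covariate they numbered 0 in HMGN3 WT and 0 in HMGN5 WT against HMGN1 WT and 0 in the HMGN1 minus HMGN5 effect.

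Leaving out each array in turn, calls ranged from 1 to 1 in HMGN1 KO, 0 to 0 in HMGN3 KO and the labelled HMGN5 KO, 19 to 22 in SV40 HMGN1, 5 to 7 in HMGN2, 9 to 11 in HMGN5, 8 to 13 in N2swap, 7 to 10 in N3swap, 0 to 0 in HMGN3a and HMGN5SE, 0 to 0 in MIN6 HMGN1 and 13 to 18 in MIN6 HMGN3a. They ranged from 20 to 25 in HMGN2 against HMGN1, 13 to 18 and 13 to 17 in N2swap and N3swap against HMGN1, 9 to 16 in N2swap against HMGN2, 11 to 16 in HMGN5 against HMGN5SE and 13 to 18 in MIN6 HMGN1 against HMGN3a. Between WT groups they ranged from 1 to 1 (HMGN3 against HMGN1), 0 to 8 (HMGN5 against HMGN1) and 0 to 6 (HMGN5 against HMGN3). Effect differences ranged from 0 to 1 (HMGN1 minus HMGN3), 0 to 24 (HMGN1 minus HMGN5) and 0 to 0 (HMGN3 minus HMGN5).

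The cases listed next number 15 calls and 10 genes not called at first but called under some alternative. The sign turned in 8 cases with the Actb covariate, all in comparisons whose groups the Actb difference separates. In N2swap against HMGN1, Ccna2 read 0.182 and Foxm1 0.212. In N2swap against HMGN2, Birc5 read 0.0472, Ccna2 0.32, Foxm1 0.431 and Kif4 -0.0183. Foxm1 read 0.159 in N3swap against HMGN1 and -0.219 in HMGN2 against HMGN1. It turned in 17 cases with all probe sets averaged. Against the vector these were Cenpa (-0.0153), Cenpe (-0.318) and Cenpf (-0.219) in N2swap, Cenpe (-0.388) and Cenpf (-0.302) in N3swap, Incenp (0.0561) in HMGN2 and Cenpa (0.956) in HMGN5. Against HMGN1 they were Cdc25c (-0.0494), Tpx2 (0.0585) and Ttk (0.154) in N2swap, Cdc25c (-0.139), Tpx2 (0.124) and Ttk (0.208) in N3swap, and Ccna2 (-0.169) and Kif23 (0.0472) in HMGN2. The others were Kif2c in N2swap against HMGN2 (-0.234) and Cenpa in HMGN5 against HMGN5SE (0.852).

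Replicate numbers are shared across groups by the labels, but did not pair the arrays: in 0 of 18 comparisons was every same-number correlation over 0.1 (range -0.39 to 0.377), and in 3 each array correlated best with its own number. With the replicate block the calls were 23 in SV40 HMGN1, 25 in HMGN2 against HMGN1, 10 in HMGN5 and 15 in MIN6 HMGN3a. Precision is limited by 3 arrays a group, and primary MEF arrays had the lowest median intensities (5.46 to 5.93).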
